A study of Homo sapiens with 13 samples.

Results

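The epidermal differentiation complex is a run of genes on human chromosome 1, band 1q21, that encode structural and calcium-binding proteins of stratified epithelium. Its members were taken as every gene of the RNA tables on chromosome 1 whose left end lay between 151950000 and 153650000 (hg19) and whose RefSeq accession was a protein-coding one, which gave 65 of 23637 genes. By symbol they are 17 S100 genes, 10 small proline-rich genes (SPRR), 18 late cornified envelope genes (LCE), 7 fused-type S100 genes, 2 peptidoglycan recognition genes, 8 other genes such as involucrin (IVL) and loricrin (LOR), and 3 neighbours at the telomeric edge, CHTOP, SNAPIN and ILF2, that the window takes in although they are not epidermal genes.

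The cells were TE-7, an established line of human esophageal epithelium, left untreated (control) or given 100 ng/ml of IL-13, interleukin-13, a cytokine of allergic inflammation. Control and treated cells were profiled by RNA-seq at 2, 6 and 24 hr. At 6 hr the histone marks H3K4me3, H3K9Ac and H3K27Ac, found at active promoters, were mapped in both by chromatin immunoprecipitation sequencing (ChIP-seq). Each of these 12 groups is 1 library, so a difference between 2 of them has no replicate check. TE-7 is a single cultured line and does not form the layered tissue in which the complex is normally used.

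When a squamous cell leaves the basal layer, it builds a cornified envelope, a protein shell cross-linked by transglutaminases. Involucrin, loricrin, the SPRR proteins and the LCE proteins are substrates of that cross-linking, and filaggrin, the best known fused-type S100 protein, bundles keratin filaments. The S100 proteins are small calcium sensors with varied partners, and several are made by basal cells as well, so the complex holds both genes of late differentiation and genes of living cells. Esophageal epithelium does not fully keratinise, and it is known for SPRR3, cornulin (CRNN) and S100A8 and S100A9 in its upper layers.

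Levels are given as RPKM, reads scaled to transcript length and library size, which can be compared between genes. Between 11794 and 12306 genes reached 1 RPKM in a library. The read sets behind the libraries, as estimated from low values, held 13.02 to 26.85 M reads. At 24 hr 1 read in 1 kb of transcript was worth 0.0737 RPKM (control) or 0.0713 RPKM (IL-13), so members near 1 RPKM rest on few reads. The controls at 2 and 6 hr had 359 identical values above 0, none of them in a member, where every other pair of libraries had 0, so these controls appear to share a read set and their comparisons are not independent. The control at 2 hr also held brain transcripts, with a summed level of 25.1 RPKM over 12 brain markers against 6.25 to 8.01 RPKM in the other libraries. Of 7 squamous markers, KRT5, KRT14, TP63, DSG3, KRT4, KRT13 and SFN, 7 reached 1 RPKM in the controls. Only KRT4 stayed under it with IL-13 at 2 and 6 hr. The 5 fibroblast markers summed to 2.27 to 5.38 RPKM and the 7 columnar markers to 605 to 1216 RPKM. KRT8 and KRT18 made up nearly all of the columnar sum, the other 5 were at or below 0.119 RPKM, and CDX2 was listed at 0 in all 6 libraries. In bulk RNA, fewer cells of a type and less RNA per cell cannot be told apart.

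RNA of the complex lay at its ends. S100A10 and S100A11 at the centromeric edge and S100A6, S100A2, S100A16 and S100A14 toward the telomeric edge exceeded 100 RPKM in all 6 libraries. Between S100A11 and S100A6 no member exceeded 9.09 RPKM. In all, 19 of the 65 members reached 1 RPKM in at least 1 library, 22 were detected below that level, and 24 were listed at 0 in every library. All members together held 1.22% of the summed RPKM of all genes in the control at 2 hr, 1.12% at 6 hr and 1.1% at 24 hr. With IL-13 they held 1.13%, 1.01% and 0.920%.

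**Figure D1:**
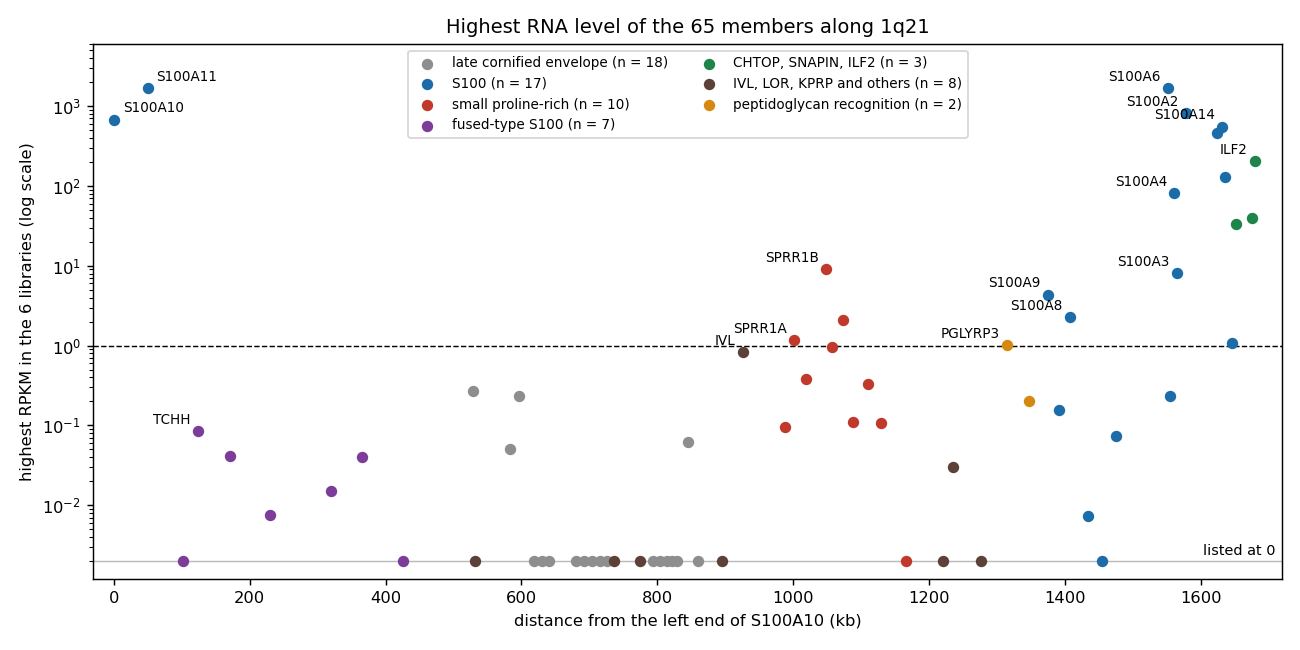
Highest RPKM of each of the 65 members over the 6 RNA libraries (vertical axis, log scale) against the distance of its left end from that of S100A10 in kb (horizontal axis), with 1 point per gene coloured by family. The dashed line marks 1 RPKM and the grey line holds the 24 genes listed at 0. Points above 100 RPKM lie only at the left and right ends, and the genes between S100A11 and S100A6 reach at most 9.09 RPKM. The right end also holds lower S100 genes, such as S100A4 at 82.2 RPKM and S100A5 at 0.232 RPKM.

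The genes of terminal cornification were the least expressed. Of the 18 LCE genes 14 were listed at 0 in every library, and the highest value of the other 4 was 0.270 RPKM, in LCE5A in the control at 24 hr. LCE3D reached 0.234 RPKM, LCE1A 0.0614 RPKM and LCE3E 0.0508 RPKM. Among the fused-type S100 genes TCHHL1 and CRNN were listed at 0. The other 5 reached at most 0.0855 RPKM (TCHH, trichohyalin of the hair follicle), 0.0413 RPKM (RPTN), 0.0397 RPKM (FLG2), 0.0153 RPKM (FLG, filaggrin) and 0.00766 RPKM (HRNR, hornerin). LOR, KPRP, CRCT1, C1orf68, SMCP and LELP1 were listed at 0 throughout, and PRR9 reached 0.0303 RPKM. None of these genes was compared between treatments.

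The SPRR genes encode short proline-rich cross-bridging proteins of the envelope. Of the 10, SPRR1B, SPRR1A and SPRR2A reached 1 RPKM. SPRR1B (chromosome 1, 153003679 to 153005376, plus strand, hg19) stood at 9.09, 6.09 and 8.69 RPKM in the controls at 2, 6 and 24 hr, and at 6.48, 3.12 and 1.96 RPKM with IL-13. Each IL-13 library was below its control, 1.4-fold, 1.95-fold and 4.44-fold in order of time. The control at 6 hr (6.09 RPKM) was below the IL-13 library at 2 hr (6.48 RPKM), so the groups overlap across times.

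SPRR1A (152956564 to 152958290, plus strand), the closest relative of SPRR1B, stood at 1.17, 0.843 and 0.910 RPKM in the controls and at 0.787 and 0.305 RPKM with IL-13 at 2 and 6 hr, and was listed at 0 with IL-13 at 24 hr. SPRR2D stood at 0.896, 0.427 and 0.973 RPKM in the controls and at 0.533, 0.0847 and 0.732 RPKM with IL-13. Both were lower with IL-13 at each time, but neither reached the level at which a 2-fold call was made at 6 or 24 hr. SPRR2A (153028596 to 153029988, minus strand) stood at 2.08, 1.19 and 0.218 RPKM in the controls and at 1.34, 0.561 and 0.527 RPKM with IL-13. It was lower with IL-13 at 2 and 6 hr and higher at 24 hr, where both values are under 1 RPKM. The remaining SPRR genes stayed at or below 0.381 RPKM, the value of SPRR3 in the control at 24 hr, and SPRR2G was listed at 0. SPRR2E reached 0.333 RPKM, SPRR2B 0.112 RPKM, SPRR2F 0.109 RPKM and SPRR4 0.0962 RPKM. The SPRR2 genes are near-identical copies that can share reads, so their separate values are uncertain. Summed over the 10 genes, RNA was 13.8, 8.82 and 11.5 RPKM in the controls and 9.23, 4.28 and 3.56 RPKM with IL-13, which is 33.1%, 51.5% and 69.0% lower. SPRR1B makes up most of each sum.

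Since SPRR1B, SPRR1A and SPRR2A were each lower with IL-13 at 2 and 6 hr, their promoter windows are shown, with that of IVL for contrast and that of S100A2, the abundant member with the largest decrease. Each runs 5′ to 3′ from 250 bases before to 50 bases after the start in RefSeq (GRCh38.p14, coordinates of that build), which need not be the start used in the hg19 tables. Capitals mark matches on either strand to TGANTCA, the site of AP-1 factors, and to TATAAA, the TATA box. The windows are chr1:153030953-153031252 (plus strand) for SPRR1B, chr1:152983831-152984130 (plus) for SPRR1A, chr1:153057463-153057762 (minus) for SPRR2A, chr1:152908296-152908595 (plus) for IVL and chr1:153565795-153566094 (minus) for S100A2, the 1 of its listed windows that holds an AP-1 match.
SPRR1B: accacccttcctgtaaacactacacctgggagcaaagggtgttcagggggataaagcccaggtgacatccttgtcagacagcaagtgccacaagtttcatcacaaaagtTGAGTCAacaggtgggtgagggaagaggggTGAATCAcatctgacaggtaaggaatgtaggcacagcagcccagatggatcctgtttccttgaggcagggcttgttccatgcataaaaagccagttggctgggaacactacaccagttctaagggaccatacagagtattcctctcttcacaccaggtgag
SPRR1A: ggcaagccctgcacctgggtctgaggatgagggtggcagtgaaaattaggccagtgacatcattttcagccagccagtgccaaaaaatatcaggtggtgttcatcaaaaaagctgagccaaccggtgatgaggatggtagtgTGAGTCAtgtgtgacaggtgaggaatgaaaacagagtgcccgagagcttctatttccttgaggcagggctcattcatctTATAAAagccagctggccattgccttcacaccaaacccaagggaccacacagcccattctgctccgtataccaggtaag
SPRR2A: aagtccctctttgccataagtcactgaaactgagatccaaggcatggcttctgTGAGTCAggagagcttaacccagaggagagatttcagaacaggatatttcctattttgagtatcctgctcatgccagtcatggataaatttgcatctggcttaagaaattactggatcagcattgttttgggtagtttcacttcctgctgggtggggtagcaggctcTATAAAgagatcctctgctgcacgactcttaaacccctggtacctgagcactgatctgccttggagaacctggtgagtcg
IVL: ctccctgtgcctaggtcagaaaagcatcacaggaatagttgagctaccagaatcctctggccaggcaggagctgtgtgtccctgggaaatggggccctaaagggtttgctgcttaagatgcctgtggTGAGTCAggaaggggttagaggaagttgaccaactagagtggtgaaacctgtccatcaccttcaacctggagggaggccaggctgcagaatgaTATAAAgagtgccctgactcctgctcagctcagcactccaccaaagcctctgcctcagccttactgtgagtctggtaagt
S100A2: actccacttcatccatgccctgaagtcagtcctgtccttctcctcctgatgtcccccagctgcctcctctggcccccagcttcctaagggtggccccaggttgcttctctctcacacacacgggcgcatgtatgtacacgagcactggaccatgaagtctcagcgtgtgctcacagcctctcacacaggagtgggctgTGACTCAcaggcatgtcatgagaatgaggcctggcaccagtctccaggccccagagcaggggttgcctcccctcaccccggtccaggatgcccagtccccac

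SPRR1B holds 2 AP-1 matches, 141 and 111 bases before its start, and SPRR1A holds 1, 108 bases before. The SPRR2A match lies 197 bases, the IVL match 123 bases and the S100A2 match 52 bases before the start. The S100A2 window was selected for its AP-1 match, so that match is no separate result. SPRR1A, SPRR2A and IVL have a TATA match 29 or 30 bases before the start, and SPRR1B and S100A2 have none in these letters. In a global alignment the SPRR1A and SPRR1B windows were identical at 216 bases, or 72% of 300, and those of SPRR2A and SPRR2F at 263 bases.

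Windows were found for 60 of the 65 members, 69 windows in all. CRCT1, LCE1B, SPRR2D, SPRR2E and S100A7L2 had no entry. AP-1 letters occurred in 20 of the 69, or 29%, against 7.71% of all 35116 windows of the same length. They were in 6 of 8 SPRR, 4 of 23 S100 and 0 of 18 LCE windows. The TATA letters were in 44.9% of member windows and 11.5% of all windows. Letters of the site of STAT6, the factor that IL-13 activates (TTC and GAA with any 4 bases between), were in 7.25% of member windows and 6.44% of all windows, and in 0 of the 8 SPRR windows. The Grainyhead site AACNGGTT was in 7 of 69 member windows, or 10.1%, and in 1.73% of all windows. Those member windows include ones of the neighbours ILF2 and SNAPIN, and overlapping SNAPIN windows hold the same site. The others were of LCE1A, RPTN, S100A9 and SPRR2B. GGGTGTGG, a site of Krüppel-like factors, was in 0 of 69 member windows and 3.28% of all windows. Some windows of neighbouring starts overlap, and a match is a description of letters, not evidence of binding.

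The S100 genes above 100 RPKM in all 6 libraries were lower with IL-13 at each time, by amounts that differed between genes, at 24 hr from 5.07% in S100A11 to 31.7% in S100A2. S100A11, a partner of annexin A1, stood at 1667, 1496 and 1481 RPKM in the controls and at 1548, 1424 and 1406 RPKM with IL-13. S100A6, calcyclin, stood at 1225, 1143 and 1689.96 RPKM in the controls and at 1109, 1039.6 and 1275 RPKM with IL-13. S100A10, the annexin A2 partner, stood at 676, 586 and 401 RPKM in the controls and at 627, 496 and 320.1 RPKM with IL-13. In each of these genes the IL-13 library was the lower of its pair at all 3 times, by 4.78% to 24.5%. Within the controls S100A6 was 1.48-fold higher and S100A10 1.46-fold lower at 24 than at 6 hr.

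S100A2 (153533585 to 153538306, minus strand), a target of the squamous regulator p63 in basal cells, stood at 824, 779 and 183 RPKM in the controls and at 692, 636 and 125 RPKM with IL-13. It was 16.0%, 18.4% and 31.7% lower, the largest decrease at 2, 6 and 24 hr among the 6 S100 genes above 100 RPKM in all libraries. S100A16 stood at 465, 457 and 304 RPKM in the controls and at 429, 387 and 252 RPKM with IL-13. S100A14, a secreted and membrane-associated S100 of epithelia, stood at 359, 362 and 555 RPKM in the controls and at 332, 321 and 451 RPKM with IL-13. S100A13, which takes part in the release of fibroblast growth factor 1, stood at 130.3, 127 and 98.5 RPKM in the controls and at 119, 108 and 73.4 RPKM with IL-13. These 4 genes were also lower at each time. Summed over the 17 S100 genes, RNA was 9.14%, 10.8% and 17.5% lower with IL-13, at 5378 and 4886 RPKM at 2 hr, 4978 and 4438 RPKM at 6 hr, and 4803 and 3961 RPKM at 24 hr.

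That direction was read against other genes of similar level. Of the 518 genes with at least 100 RPKM in all 6 libraries, 30.9% were lower with IL-13 at 3 of 3 times and 9.07% were higher. Of the 7 members of that level, the 6 S100 genes were lower at 3 of 3 times and ILF2 was not. Among the 11242 genes of at least 1 RPKM in all 6 libraries, 20.1% were lower and 23.3% higher at 3 of 3 times, and of the 12 members of that kind 8 were lower (S100A10, S100A11, S100A6, S100A2, S100A16, S100A14, S100A13 and SPRR1B) and 0 higher. At 2 hr lower values were the rule among abundant genes, with 83.4% of the 518 below 0 and a median log2 ratio of -0.05. At 6 hr 68.1% of the 518 lay below 0, with a median of -0.02, and at 24 hr 42.1%. At 24 hr the median of the 518 was 0.03 and that of the 7 members -0.30. These comparisons at 2 and 6 hr appear to share control reads.

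Unlike the S100 genes above 100 RPKM in all 6 libraries, the 3 neighbours were not lower with IL-13 at every time. CHTOP, a nuclear RNA export factor, stood at 31.01, 30.8 and 30.6 RPKM in the controls and at 30.5, 29.5 and 33.8 RPKM with IL-13. SNAPIN, a protein of vesicle transport, stood at 27.6, 30.8 and 39.3 RPKM in the controls and at 27.7, 28.7 and 38.1 RPKM with IL-13. ILF2, a double-stranded RNA binding protein, stood at 187, 206 and 139 RPKM in the controls and at 179, 203 and 152 RPKM with IL-13. Each was higher at 1 time and lower at 2.

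S100A8 and S100A9, which form the antimicrobial heterodimer calprotectin, were low. S100A9 (153330330 to 153333503, plus strand) stood at 1.35, 1.01 and 4.34 RPKM in the controls and at 1.196, 0.579 and 3.21 RPKM with IL-13. S100A8 (153362508 to 153363664, minus strand) stood at 0.985, 0.800 and 2.26 RPKM in the controls and at 0.681, 0.767 and 0.818 RPKM with IL-13. Both were lower with IL-13 at each time, and at 24 hr S100A8 was 2.76-fold and S100A9 1.35-fold lower. The relatives S100A12, S100A7, S100A7A and S100A7L2 stayed at or below 0.158 RPKM. Since neutrophils and monocytes also make calprotectin, 10 of their markers were read beside it. At most 2 of the 10 reached 1 RPKM in a library, MPO and CD68, and FCGR3B, TYROBP and FCN1 were listed at 0 in all 6 libraries. The marker sum was 6.76 to 8.36 RPKM at 2 and 6 hr, and at 24 hr 19.4 RPKM without and 16.1 RPKM with IL-13. MPO made up 14.5 and 13.2 RPKM of the sums at 24 hr.

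The remaining S100 genes differed from one another. S100A4 (153516098 to 153518282, minus strand), a mesenchyme-associated S100, stood at 20.6, 20.04 and 82.2 RPKM in the controls and at 18.4, 20.3 and 52.1 RPKM with IL-13, so that the libraries of a pair were close at 6 hr and 1.58-fold apart at 24 hr. S100A3, known from hair cuticle, stood at 7.33, 5.76 and 1.398 RPKM in the controls and at 8.13, 3.90 and 0.870 RPKM with IL-13, higher at 2 hr and lower at 6 and 24 hr. S100A5 stayed at or below 0.232 RPKM. S100A1, best known from heart muscle, stood at 1.05, 0.719 and 0.496 RPKM in the controls and at 0.794, 0.737 and 1.08 RPKM with IL-13, the 1 S100 gene above 1 RPKM that was higher with IL-13 at 24 hr. Its 3641 bp lie wholly within the span of S100A13 on the other strand. The strand of the reads is not given in the sources used here, so reads in any exon sequence common to both genes cannot be told apart. How much exon sequence they share was not examined, and S100A13 stood far higher, at 73.4 to 130.3 RPKM. The brain transcripts of the control at 2 hr accompany the highest control value of S100A1, and their part in it was not tested.

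PGLYRP3 and PGLYRP4 encode secreted proteins that bind bacterial cell walls. PGLYRP3 (153270338 to 153283194, minus strand) was at 0.0159 RPKM in the control at 2 hr, listed at 0 at 6 hr and at 1.01 RPKM at 24 hr, and stood at 0.0265, 0.0466 and 0.426 RPKM with IL-13. It was thus low in the 4 early libraries and higher in both late ones. PGLYRP4 reached 0.201 RPKM.

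By a limit of 2-fold on the log2(RPKM + 0.1) scale with at least 1 RPKM in the higher library, 0 of 17 members compared were called at 2 hr and 0 of 15 at 6 hr. The same limit called 0.342% of all genes lower and 0.658% higher at 2 hr, and 0.318% and 0.753% at 6 hr. At 24 hr 3 of 17 members were lower, SPRR1B, S100A8 and PGLYRP3, and 0 higher, where 1.27% of all genes were lower and 0.886% higher. Their log2 ratios were -2.09 for SPRR1B, -1.36 for S100A8 and -1.07 for PGLYRP3. S100A8 and PGLYRP3 reached 1 RPKM in the control alone, PGLYRP3 only just, so the limit could call them only lower. With a pseudocount of 1 only SPRR1B passed the limit, with S100A8 at -0.84 and PGLYRP3 at -0.49. The summed level of the 7 squamous markers, mostly KRT5, was also lower with IL-13, with sums of 3056 and 2858 RPKM at 2 hr, 2762 and 2433 RPKM at 6 hr and 3626 and 2307 RPKM at 24 hr (control first). Of the 7, DSG3 and TP63 were higher with IL-13 at 2 and 6 hr, with log2 ratios of 0.35 and 0.14 for DSG3 and 0.10 at both times for TP63, and TP63 was at -0.01 at 24 hr. The part of these markers in the lower member values was not tested. The median log2 ratio of the members compared was -0.13 at 2 hr, -0.23 at 6 hr and -0.41 at 24 hr, against 0.00, -0.00 and 0.02 over all genes compared. Below 0 lay 15 of 17, 14 of 15 and 14 of 17 members, and 49.2%, 51.5% and 45.4% of all genes. In the authors' deposited table SPRR1B at 24 hr was the 1 member with an adjusted p under 0.05, at 0.0223. Of all 23637 genes 140 were under 0.05 there at 24 hr, 83 at 6 hr and 3 at 2 hr. Each of those p-values compares 1 library with 1 library and measures no spread between replicates. The next smallest adjusted p of a member at that time in the authors' deposited table was 0.379, and all members were at 1 at 2 and 6 hr.

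**Figure D2:**
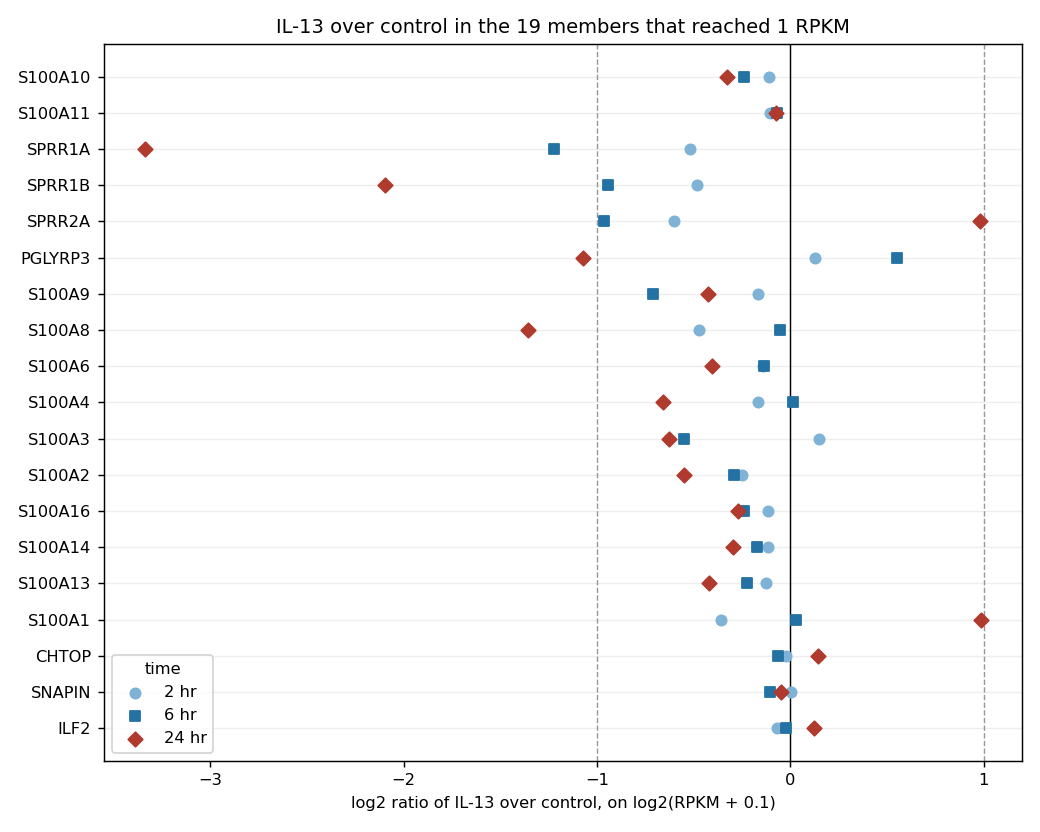
Log2 ratio of IL-13 over control on log2(RPKM + 0.1) (horizontal axis) for the 19 members that reached 1 RPKM in any library (vertical axis, in order along the chromosome), with 1 point for each time and no error because each point is a single pair of libraries. Dashed lines mark 2-fold. Points of the abundant S100 genes lie just left of 0, SPRR1B and SPRR1A lie farther left at later times, and CHTOP, SNAPIN and ILF2 lie around 0.

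A single IL-13 effect over the 3 times was estimated with limma on the same log2 scale, in a model of time and treatment fitted to all 11953 genes of at least 1 RPKM in at least 3 libraries. The 3 times serve as replicates, so the p-values measure the spread between these libraries, which may be technical. No gene passed an adjusted p under 0.05 (0% of those tested), among them the 15 members tested. At an unadjusted p under 0.05 in limma 8 of the 15 members were lower and 0 higher, where 6.94% of all genes were lower and 10% higher. These were S100A2 (-0.36 ± 0.08, SE, on the log2 scale), S100A16 (-0.21 ± 0.05), S100A9 (-0.43 ± 0.12), S100A10 (-0.22 ± 0.06), S100A13 (-0.26 ± 0.07), SPRR1B (-1.17 ± 0.33), S100A14 (-0.20 ± 0.06) and S100A6 (-0.23 ± 0.07), each lower at 3 of 3 times. The smallest limma adjusted p among members was 0.200, for S100A2. The shares of all genes are over genes of every level, while several of the 8 members are abundant. Abundant genes leaned lower with IL-13 at 2 and 6 hr, as given above, and no limma share was computed for them alone. Centred on each library's median, 9.90% of all genes were lower and 7.26% higher at that unadjusted p, and again 8 members lower. Without the 6 hr pair 2 members and 3.17% of all genes, and without the 2 hr pair 7 members and 5.25% of all genes, were lower at an unadjusted p under 0.05 in limma. Without the 24 hr pair 8 members and 8.72% of all genes were lower at that limit. That last fit rests only on the pairs whose controls appear to share reads. The changes of CHTOP (0.02 ± 0.06) and ILF2 (0.01 ± 0.06) were within their SE, and that of SNAPIN (-0.048 ± 0.047) was about equal to it.

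Some members differed more between the 6 and 24 hr libraries than between control and IL-13. From 6 to 24 hr in the controls 4 of 17 members were 2-fold higher (S100A4, S100A8, S100A9 and PGLYRP3) and 3 were lower (S100A2, S100A3 and SPRR2A), where 16.2% and 6.09% of all genes were called. Of this pair, S100A8 and PGLYRP3 reached 1 RPKM only at 24 hr and SPRR2A only at 6 hr. With a pseudocount of 1, 3 were higher and 2 lower, without S100A8 and SPRR2A, and no share of all genes is given for that setting. S100A2 was 4.25-fold and S100A3 4.12-fold lower, while S100A4, which lies next to S100A3, was 4.1-fold and S100A9 4.3-fold higher. With IL-13 the same step gave S100A4 and S100A9 higher and S100A2 and S100A3 lower, of 15 compared, where 14.9% and 5.01% of all genes were called. S100A2 was there 5.08-fold lower and S100A4 2.57-fold higher. The median log2 change of all genes over this step was 0.23 in the controls and 0.21 with IL-13, and centring on it left these counts within 1.5 times. The 24 hr libraries are single read sets whose file headings alone carry a date and a passage, so time and preparation cannot be told apart.

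IVL, involucrin, an early envelope precursor, was low at the early times and higher at 24 hr in both treatments. It stood at 0.0174, 0.0153 and 0.760 RPKM in the controls and, with IL-13, was listed at 0 at 2 hr and stood at 0.0256 RPKM at 6 hr and 0.835 RPKM at 24 hr. Both late libraries were high, both treatments overlapped, and no library reached 1 RPKM. From 2 to 6 hr 0 of 17 members were called in the controls, where 0.2% of all genes were higher and 2.36% lower. In the IL-13 libraries SPRR1B, SPRR2A and S100A3 were 2-fold lower of 15 compared and 0 were higher, against 2.9% and 0.522% of all genes, and with a pseudocount of 1 none of the 3 was called.

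**Figure D3:**
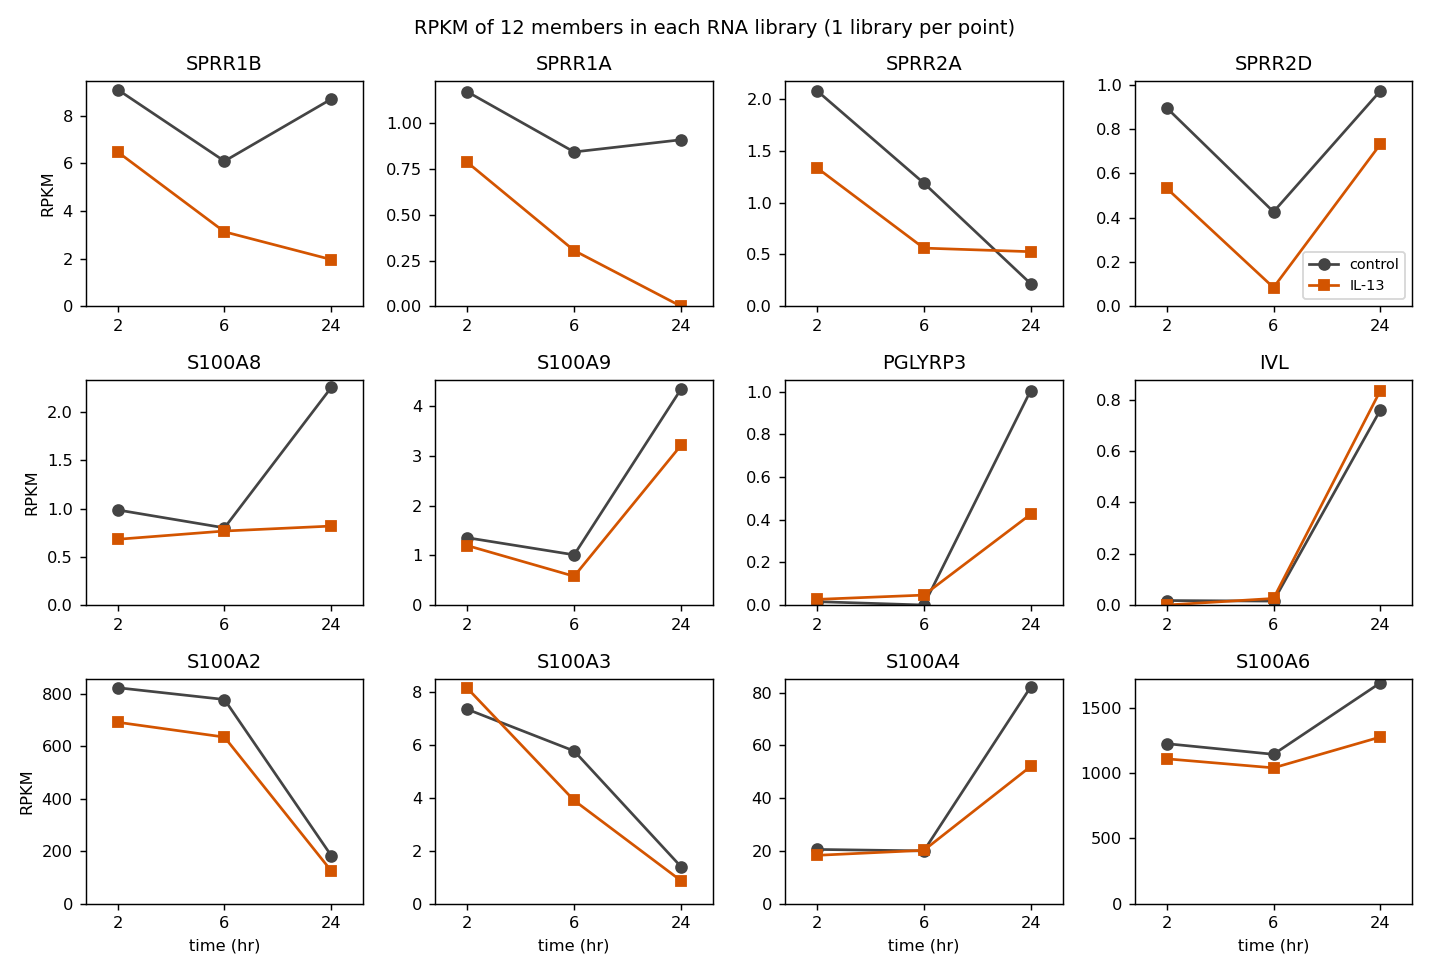
RPKM (vertical axes, each from 0) of 12 members at 2, 6 and 24 hr (horizontal axes, not to scale) in control libraries (grey circles) and IL-13 libraries (orange squares), 1 library per point and no error bars. SPRR1B, SPRR1A and S100A2 lie lower with IL-13 at every time, while S100A2 and S100A4 run in opposite directions from 6 to 24 hr in both treatments.

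Cornification genes outside 1q21 were counted from a list of 50 keratins, cross-linking enzymes, junction and barrier genes and their regulators. At 2 hr 0 of 31 members compared were called. At 6 hr 4 of 32 were lower (KRT4, KLK5, GRHL3 and CALML5), and at 24 hr 7 of 40 were lower, with 0 higher at either time, against the shares of all genes given above. The list was chosen with earlier results of these data known, so these counts are not independent evidence. The medians were -0.09, -0.30 and -0.41. The 4 at 6 hr stood at 1.12 RPKM (KLK5) to 1.80 RPKM (CALML5) in the control. With IL-13 they stood at 0.495 RPKM (GRHL3) to 0.606 RPKM (KRT4), so these calls rest on few reads. Having reached 1 RPKM in the control alone, they could be called only lower, as could TGM3 at 24 hr. A pseudocount of 1 was not tried on this list. At 24 hr the 7 were the suprabasal keratins KRT1 and KRT10, the transglutaminases TGM1 and TGM3, the calmodulin-like CALML3 and CALML5, and OVOL1, a transcriptional repressor. At that time OVOL1 was at 38.7 RPKM without and 15.3 RPKM with IL-13, and TGM3 at 1.16 and 0.373 RPKM. From 6 to 24 hr in the controls 25 of 40 of these genes were higher and 1, KRT80, was lower, where 16.2% of all genes were higher and 6.09% lower.

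Promoter peaks at 6 hr lay mainly at members with RNA. A peak listed at a gene's start was used where its level, computed from the authors' A and M, was at least 30 in the higher library, and where several were listed the one of the highest level was taken as the promoter peak. H3K27Ac had such a peak at 17 members, H3K9Ac at 15 and H3K4me3 at 11. Of the 15 members of at least 1 RPKM at 6 hr, 86.7% had H3K27Ac, 80.0% H3K9Ac and 66.7% H3K4me3, against 89.2%, 89.0% and 81.5% of all protein-coding genes of that level. Of the 50 members below 1 RPKM, 8.00%, 6.00% and 2.00% had them, against 14.9%, 13.5% and 9.08%.

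S100A11 had the highest levels, 749.6 and 635 for H3K9Ac and 719 and 626 for H3K27Ac in its libraries 1 and 2. The pair S100A14 and S100A16 shared H3K4me3 and H3K9Ac peaks, and the starts of S100A13 and CHTOP shared peaks of all 3 marks. S100A3, S100A4 and S100A5 shared 1 H3K27Ac peak and 1 H3K9Ac peak of at least the minimum level and had no H3K4me3 peak listed, although S100A4 stood near 20 RPKM. SPRR1B had H3K27Ac alone, at levels of 42.4 and 21.9, and S100A9 and SPRR2A had no peak of that level. Of the 4 members below 1 RPKM with H3K27Ac, S100A5, S100A1 and TCHH also had H3K9Ac, and SPRR4, with levels of 45.4 and 28.9, did not.

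M is the authors' log2 ratio of library 1 over library 2, and no header or label says which of them was treated, so M carries no direction of IL-13 here. At the 1 peak of highest level per member the M values of the authors' deposited table ranged from -0.34 to 0.98 for H3K4me3, from -0.15 to 1.58 for H3K9Ac and from -0.33 to 0.95 for H3K27Ac. Further peaks of at least that level were listed at 3, 3 and 5 members, and with them the lowest M in the authors' deposited table was -0.74, -0.73 and -0.88, with the highest as before. The medians over the peak of highest level were 0.17, 0.19 and 0.17, against 0.10, 0.08 and 0.09 over all genes with a peak. An M of at least 1 in size was reached at 0 of 11, 3 of 15 and 0 of 17 members, where 8.06%, 3.81% and 4.96% of all genes with a peak reached it. The 3 were S100A3, S100A4 and S100A5, which share the H3K9Ac peak with an M of 1.58 in the authors' deposited table, so 1 peak accounts for them. A further H3K9Ac peak listed at these starts had an M of -0.12 in the authors' deposited table. Its level of 17.0 was under the minimum. H3K27Ac of that cluster had an M of 0.17 in the authors' deposited table. SPRR1B had an M of 0.95 for H3K27Ac in the authors' deposited table, just under that limit. At S100A13 and CHTOP the shared H3K4me3 peak had an M of 0.98 in the authors' deposited table, and the ILF2 peak of that mark had an M of 0.71 there.

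**Figure D4:**
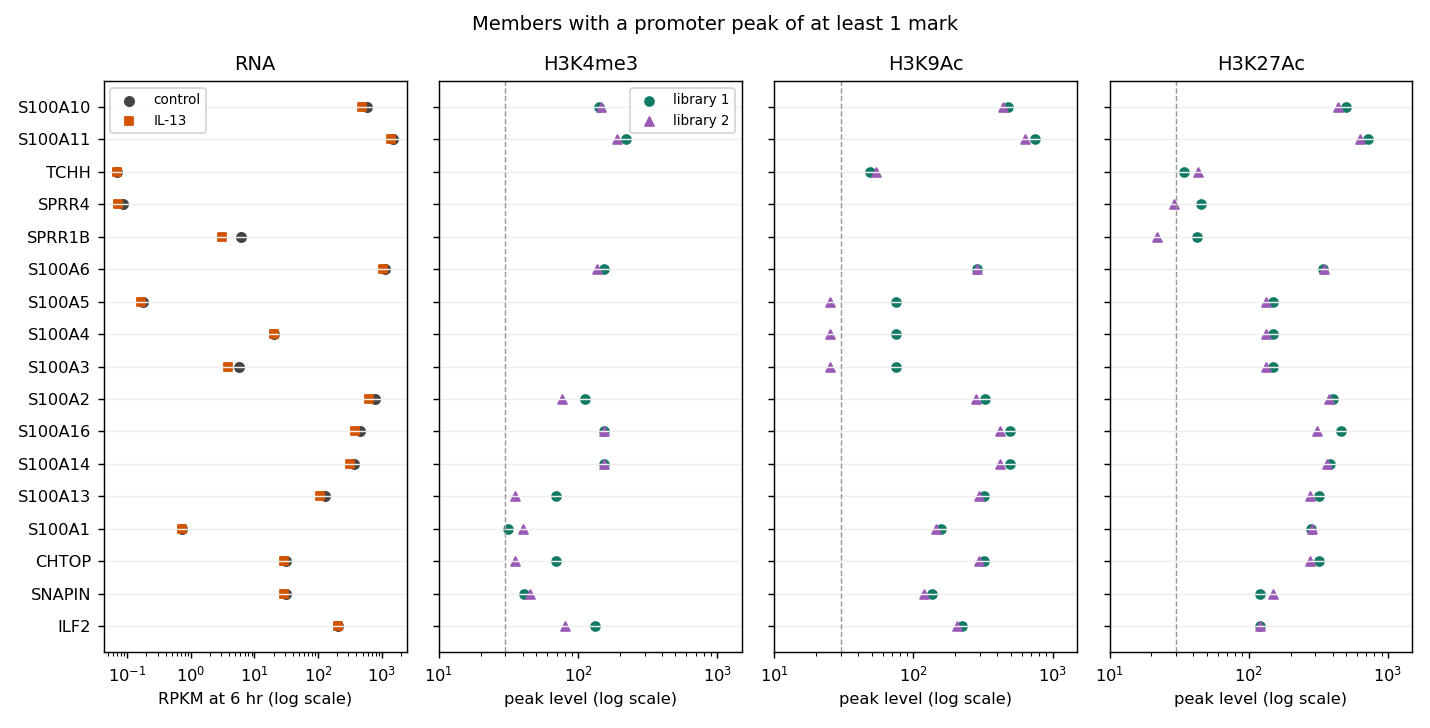
RPKM at 6 hr (first panel, control and IL-13 libraries) and level of the promoter peak in library 1 and library 2 for H3K4me3, H3K9Ac and H3K27Ac (other panels, log scales) for the 17 members with a peak of at least 1 mark. The dashed line marks the minimum level of 30 for the higher library. S100A3, S100A4 and S100A5 have the widest gap between libraries, in H3K9Ac, and SPRR1B and SPRR4 have a peak in the H3K27Ac panel and in no other mark's panel.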

How the data were processed

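RPKM values for 6 RNA libraries were deposited by the authors, per the file headers. Their log2 ratios and p-values, raw and adjusted, were also deposited for each time and are used only as the authors' values. The submitters' processing notes name TopHat2 2.0.9, Bowtie 1.0.0, MACS2 2.0.10.20130712 and DESeq, with build hg19. How reads were counted, and on which strand, is not given in the sources used here. Rescaled log2 values M and A with a −log10 p-value per peak were deposited for each mark, per the file headers. The 6 columns of raw reads name no sample and were not used. The input DNA library was not analysed here.

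A pseudocount of 0.1 was added to RPKM before log2 ratios were taken, so these understate changes of low genes. Folds are quotients of RPKM without it. Peak levels are computed from A and M as the log2 levels of the 2 libraries. limma 3.58.1 in R 4.3.3 was fitted on all genes and tested on simulated data. Python 3.11.15, pandas 2.3.3 and matplotlib 3.10.9 were used. Depth came from the steps of RPKM times length in microRNA and small nucleolar RNA genes, within 0.5%, which put 91.7% to 94.5% of low values on whole reads. Values at 2 and 6 hr needed 2 step sizes, and these libraries are taken to be averages of 2 read sets. Every member of at least 1 RPKM in any library is named with its values. The members, lists and rules were chosen with earlier results of these data known.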

Additional observations from a re-analysis of the deposited data

How the results depend on the processing

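The limma fit with time as a term is a paired analysis of 3 pairs of libraries, of which the 2 and 6 hr pairs appear to share control reads. Within a time no paired analysis was possible because each group holds 1 library. With no minimum RPKM, 1 member was lower at 2 hr (SPRR2E), 3 at 6 hr, and 7 lower and 1 higher (SPRR2F) at 24 hr, on few reads. A minimum of 0.5 RPKM gave 1 lower member at 6 hr (SPRR1A), a pseudocount of 0.01 gave 1 lower at 6 hr (SPRR2A) and 1 higher at 24 hr (S100A1), and a pseudocount of 1 left 1 lower at 24 hr. A 1.5-fold limit gave 1 lower at 2 hr, 3 lower at 6 hr, and 5 lower and 1 higher at 24 hr. Over time, in IL-13 libraries, a pseudocount of 1 left 0 lower members from 2 to 6 hr and a minimum of 0.5 RPKM gave 5, and from 6 to 24 hr that minimum gave 4 higher. Promoter peaks with M of at least 1 numbered 1 for H3K4me3 and 3 for H3K27Ac with no minimum level, and at a 1.5-fold limit 3 and 2. limma called 7 genes higher with a pseudocount of 1 and 6 with trend, and 0 to 6 higher and 0 to 1 lower when a pair of libraries was left out, with 0 members called in any of these fits.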

Other observations

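In H3K27Ac the peaks listed at the starts of S100A16 and S100A14 have the same A, 8.55, in the authors' deposited table, while their M values there are 0.57 and 0.08. For the other marks both starts have identical values, 0.02 for H3K4me3 and 0.24 for H3K9Ac in the authors' deposited table.

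S100A6 ranked 38 and 47 among all genes by RPKM in the controls at 2 and 6 hr and 18 at 24 hr. S100A2 ranked 80, 94 and 340 in the same libraries, and S100A4 3803, 3970 and 903. The genes next to the window on either side were THEM4, at 1.89 to 2.85 RPKM, and NPR1, at 0.323 to 0.634 RPKM.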
